A study of Sus scrofa with 11 samples.

Results

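Stented porcine coronary arteries cultured under high flow (3 libraries) were compared with unstented arteries cultured under the same flow mark (2 libraries), which makes 5 of the 11 RNA sequencing libraries of the series. The libraries were placed in groups by their labels: the stented group carries the stent mark together with the stronger of 2 flow marks, and the other group carries the same flow mark with no stent. Both groups were pig coronary arteries held in a bioreactor, and they are called stented high-flow and high-flow below. The remaining 6 libraries (2 stented static, 2 low-flow and 2 native) entered the same fit. There they helped to set the spread between replicates, the choice of genes tested and the scaling. They also give the other comparisons and the native averages quoted below. Stented high-flow replicate 3 carries a d suffix of 7 in its label and the other 4 libraries carry none; no label explains the suffix. No label states that libraries came from different animals, so the p-values measure the spread between these libraries, which may be partly technical. The stented and unstented libraries were deposited in separate count tables. The native columns are identical in both tables for all 25880 genes, but any difference in handling between the tables cannot be told apart from the stent.

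A stent is a mesh tube expanded against the artery wall. Its placement stretches the medial smooth muscle and strips or compresses the endothelium, the cell layer that senses flow, and the struts remain as a foreign surface. In living arteries the known later responses are loss of contractile proteins by smooth muscle, deposition of collagen-rich matrix, recruitment of macrophages and regrowth of endothelium, which together narrow the lumen as neointimal hyperplasia. The comparison asks how far the stent itself, at matched flow, altered the RNA of the vessel, and how large an effect these 5 libraries can exclude.

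The 5 libraries held 13496636, 19739991 and 22214011 counts in stented high-flow and 19966425 and 18989103 counts in high-flow, and 3 counts corresponded to 0.141 to 0.215 CPM (counts scaled to library size). Vessel-wall markers were present in all 5: the smooth muscle myosin MYH11 ranged over 280 to 934 CPM in stented high-flow and was 82.0 and 1030 CPM in high-flow, and the endothelial adhesion molecule PECAM1 ranged over 103 to 181 CPM and was 279 and 195 CPM. Of 25880 genes, 15348 had enough counts to be tested. In the same fit, 438 genes (2.85%) were called between stented high-flow and stented static, 16 (0.104%) between high-flow and low-flow, 3737 (24.3%) between stented high-flow and native and 2272 (14.8%) between high-flow and native. These comparisons share libraries with the one described here. Both stented static libraries carry a d suffix of 3 in their labels, which no stented high-flow library carries. What the suffix stands for may thus differ along with flow in that comparison. Experiment number 25 is on the labels of both stented high-flow replicate 1 and native replicate 2, and the fit treats them as independent, so a shared source would affect the count against native.

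Pairs of libraries across the stent and within a group differed by overlapping amounts. Over the tested genes, the root mean square difference of log2 CPM between a stented and an unstented library was 0.674 to 1.01 in the 6 such pairs. Within stented high-flow it was 0.795 to 1.099 in 3 pairs, and between the high-flow libraries it was 0.858. The most alike of all 10 pairs was stented high-flow replicate 2 with high-flow replicate 1, for which 88.1% of genes lay within 2-fold, and the least alike was stented high-flow replicates 1 and 3, with 67.8%. The first principal component, with 45.2% of the variance among the 5 libraries, placed stented high-flow replicate 1 (−58.4) beside high-flow replicate 2 (−45.7), and stented high-flow replicates 2 (20.7) and 3 (66.1) beside high-flow replicate 1 (17.2). The third component, with 16.8% of the variance, separated the groups, with −29.2, 1.08 and −29.5 in stented high-flow and 45.4 and 12.2 in high-flow.

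**Figure D1:**
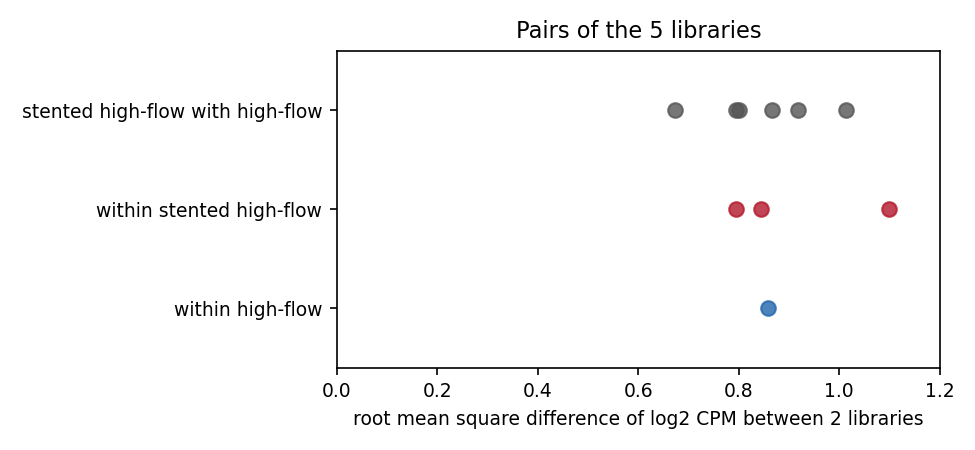
Root mean square difference of log2 CPM over the tested genes (x axis) for each pair of libraries, 1 point a pair, grouped by whether the pair crosses the stent or lies within a group. The 6 pairs across the stent span 0.674 to 1.01 and overlap the pairs within stented high-flow (0.795 to 1.099) and the pair within high-flow (0.858).

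The split along the first component also ran through the smooth muscle genes. Summed over the 18 contractile genes tested, stented high-flow had 12823, 7881 and 7417 CPM and high-flow had 4698 and 11466 CPM. Mitochondrially encoded genes took 5.77%, 5.19% and 3.31% of counts in stented high-flow and 4.85% and 8.65% in high-flow. The part of these differences between replicates in the results that follow was not tested. Where an estimate moved strongly with 1 library, the lowest and highest value on leaving out each of the 5 libraries in turn is given for the main examples as its leave-one-out range.

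No gene passed an adjusted p of 0.05 between stented high-flow and high-flow. edgeR's quasi-likelihood test called 0 of 15348 genes (0%), with a smallest Benjamini-Hochberg adjusted p of 1. At an unadjusted p under 0.05 there were 467 genes (3.04%), of which 167 (1.09%) had higher and 300 (1.95%) had lower estimates in the stented group. limma-voom called 0 genes, and DESeq2 called 6, with 2 higher and 4 lower in the stented group. The estimates centred on 0, with a median log2 fold change of 0.03 (stented high-flow minus high-flow, as throughout) and a median size of 0.27, and 8.78% of genes had an estimate larger than 2-fold. The libraries of one group all lay above those of the other for 1912 genes (12.5%), with 842 (5.49%) higher and 1070 (6.97%) lower in the stented group. For a single gene taken alone, 3 libraries against 2 cannot reach a p under 0.2 in an exact two-sided rank test.

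Because a p above the threshold does not show that expression was the same, the 95% interval of each log2 fold change was used to ask which effects the data exclude. The median gene had an interval reaching 0.88 log2 units to each side of its estimate, and the middle 50% of genes had between 0.66 and 1.32. A 2-fold effect in either direction lay outside the interval for 5724 genes (37.3%), a 4-fold effect for 12087 genes (78.8%) and an 8-fold effect for 14061 genes (91.6%). An effect of 1.5-fold was excluded for only 430 genes (2.80%). When only the 2 groups compared were fitted, 14130 genes were tested. A 2-fold effect was then excluded for 4306 genes and a 4-fold effect for 11666. When the intervals of the main fit were replaced by equivalence tests adjusted over all genes, 4471 genes (29.1%) passed at 2-fold and 12666 (82.5%) at 4-fold. This form was chosen after the data were seen. It tests each bound with a single tail at 0.05, a looser level than the 95% interval. The interval counts were not adjusted over genes, so the counts of the interval and equivalence forms are not at a like level. The 2-fold count from the intervals depended on the high-flow pair: it was 2210 genes without high-flow replicate 1 and 3522 without replicate 2, each leaving a single high-flow library assumed to vary like the others.

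Abundant genes carried most of these limits. In the 25% of genes with the highest mean log2 CPM, a 2-fold effect was excluded for 66.5% and a 4-fold effect for 97.7%. In the next 25% the shares were 58.4% and 97.2%, and in the 25% after that they were 24.2% and 88.3%. In the lowest 25%, below a mean log2 CPM of 1.28, they were 0.0782% and 31.8%, so that at this depth and replicate number the intervals of most weakly expressed genes included a 4-fold effect.

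**Figure D2:**
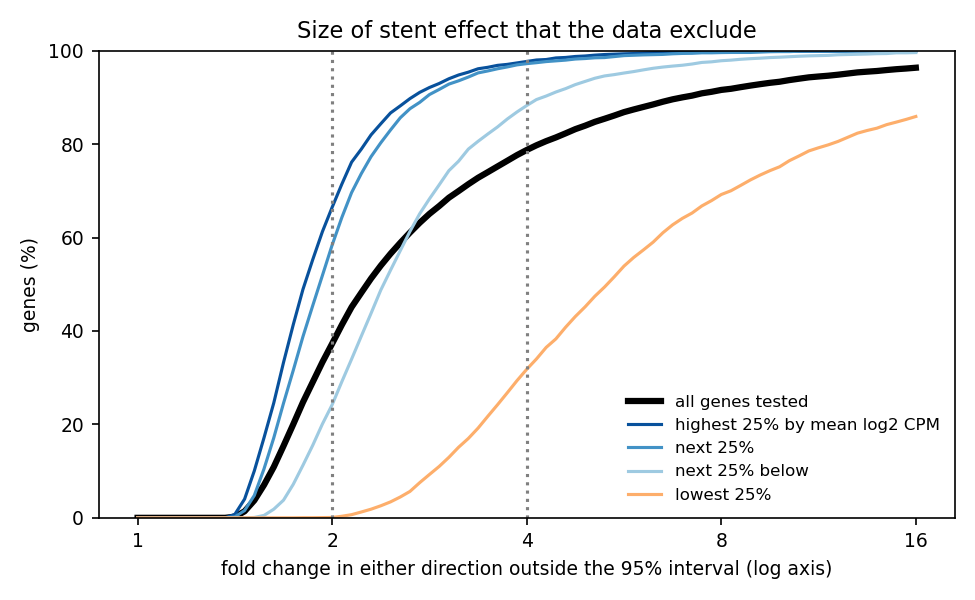
Share of genes (y axis, %) whose 95% interval leaves out a given fold change in either direction (x axis, log scale), for all 15348 genes tested and for each 25% of genes by mean log2 CPM; dotted lines mark 2-fold and 4-fold. At 2-fold the curve for all genes stands at 37.3% and at 4-fold at 78.8%, and the lowest 25% of genes stay far below the rest.

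Endothelial markers had lower estimates in the stented arteries. Of 19 tested, 17 had an estimate below 0, against 46.2% of all genes, and 9 had all stented libraries below both high-flow libraries, against 6.97% of all genes. Their median log2 fold change was −0.82, against 0.03 over all genes, and it lay between −1.0 and −0.56 when each library was left out in turn. None was called, as for every gene tested, and 5 had an unadjusted p under 0.05 by edgeR, against 3.04% of all genes. In bulk tissue, fewer endothelial cells and less RNA per endothelial cell cannot be told apart.

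PECAM1 (chromosome 12, 14667643 to 14723296, Sscrofa11.1), which joins neighbouring endothelial cells and takes part in flow sensing, had 103, 181 and 118 CPM in stented high-flow, against 279 and 195 CPM in high-flow. Its stented libraries averaged 134 ± 41.3 CPM (SD, n = 3) and its high-flow libraries 237 ± 59.2 CPM (SD, n = 2), and the groups did not overlap. The log2 fold change was −0.82 ± 0.38 (SE), with an interval of −1.66 to 0.02. CDH5, the cadherin of endothelial junctions, had 65.4, 70.1 and 64.1 CPM in stented high-flow, against 153 and 89.8 CPM in high-flow. TIE1, an endothelial receptor kinase, had 19.3, 21.4 and 20.3 CPM in stented high-flow, against 36.0 and 45.9 CPM in high-flow. Both genes were again lower in each stented library, and the stented libraries lay close together.

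ROBO4, a guidance receptor of endothelium, had 7.82, 12.5 and 14.2 CPM in stented high-flow, against 30.7 and 24.9 CPM in high-flow (log2 fold change −1.27 ± 0.41, unadjusted p = 0.0103 and adjusted p = 1 by edgeR). ECSCR, an endothelial surface protein, had 12.8, 11.5 and 5.11 CPM in stented high-flow, against 22.2 and 32.2 CPM in high-flow (−1.48 ± 0.57). Not every marker followed. ENG, a TGF-beta co-receptor that other vessel cells also express, had 358, 565 and 764 CPM in stented high-flow, with both high-flow libraries at 493 and 494 CPM inside that range. The endothelial transcription factor ERG had 119, 158 and 97.6 CPM in stented high-flow, against 128 and 115 CPM, and its groups overlapped too.

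Genes that shear stress controls had mixed estimates. Of 17 flow-responsive genes tested, 12 had an estimate below 0, against 46.2% of all genes, and the median was −0.42. A 2-fold effect was excluded for 3 of them and a 4-fold effect for 12. KLF2, the transcription factor induced by laminar flow, had 79.9, 69.6 and 89.6 CPM in stented high-flow, against 74.5 and 101 CPM in high-flow. Its log2 fold change was −0.14 ± 0.44, with an interval of −1.12 to 0.84, so an effect of more than 2.17-fold lay outside it. KLF4, the related factor, had 44.4, 70.5 and 61.3 CPM in stented high-flow, against 50.6 and 26.7 CPM in high-flow (0.60 ± 0.31, leave-one-out range 0.20 to 1.14), and its interval left out effects above 2.43-fold.

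NOS3, the endothelial nitric oxide synthase, had 14.7, 17.3 and 15.3 CPM in stented high-flow, against 22.6 and 38.5 CPM in high-flow. All stented libraries were lower, but the high-flow libraries differed from each other by more than the gap, and the interval of −2.22 to 0.32 was wide. VCAM1, a leukocyte adhesion molecule, overlapped, with 70.7, 44.0 and 24.2 CPM in stented high-flow, against 36.7 and 124 CPM in high-flow (−0.80 ± 0.53, leave-one-out range −1.43 to 0.30). PTGS2, the inducible cyclooxygenase, had 187, 99.2 and 117 CPM in stented high-flow, against 619 and 108 CPM in high-flow, so its estimate of −1.44 rested on high-flow replicate 1 and was 0.32 without it.

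Contractile smooth muscle genes were measured imprecisely. Of 18 tested, 11 had an estimate above 0 and 7 below, with a median of 0.01, and the median ranged from −0.40 to 1.38 when single libraries were left out, the upper end being the value without high-flow replicate 2. The median interval reached 1.64 log2 units to each side, against 0.88 for all genes, and 10 of the 18 excluded a 4-fold effect. MYH11 (chromosome 3, 7002667 to 7143093) had 934, 468 and 280 CPM in stented high-flow, against 82.0 and 1030 CPM in high-flow. The high-flow libraries stood at both ends of the range, so the estimate of 0.01 ± 0.97 had an interval of −2.13 to 2.15 and left out only effects above 4.45-fold. Its leave-one-out range was −0.88 to 2.73, the upper end without high-flow replicate 2. CNN1, an actin-binding regulator of contraction, had 362, 205 and 288 CPM in stented high-flow, against 48.1 and 343 CPM in high-flow (leave-one-out range −0.27 to 2.54).

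ACTA2, the smooth muscle actin, had 3022, 2161 and 2415 CPM in stented high-flow, against 865 and 2203 CPM in high-flow (0.72 ± 0.78). ACTG2 (chromosome 3, 69097366 to 69121542), the enteric smooth muscle actin, was the one contractile gene with an unadjusted p under 0.05. It had 458, 351 and 652 CPM in stented high-flow, against 56.6 and 94.0 CPM in high-flow, with a log2 fold change of 2.69 ± 0.77 (adjusted p = 1 by edgeR). The groups were well apart, but actin genes are nearly identical in sequence and the counting may have split reads between them, so the value is uncertain. SRF, the transcription factor that drives contractile genes, lay higher in every stented library by a small margin, at 66.2, 64.5 and 71.8 CPM against 57.1 and 60.5 CPM, and effects above 1.59-fold were outside its interval.

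Matrix genes had mostly positive estimates of modest size. Of 22 collagen and collagen-assembly genes, 20 had an estimate above 0, against 53.6% of all genes, and the median was 0.49, ranging from 0.15 to 1.19 as single libraries were left out, with the upper end reached without high-flow replicate 1. Only 1 of 22 had fully separate groups, against 12.5% of all genes. A 4-fold effect was excluded for 18 (81.8%, against 78.8% of all genes) and a 2-fold effect for 2 (9.09%, against 37.3%). All 22 had a mean log2 CPM above 5.48. Of all tested genes above that level, 97.7% excluded a 4-fold and 66.5% a 2-fold effect. The collagen list was thus measured less precisely than most genes of like abundance. The estimates moved with high-flow replicate 2, whose summed collagen level of 42245 CPM was below the other 4 libraries.

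LOXL2 (chromosome 14, 7435861 to 7540699), which cross-links collagen, was the separate one. It had 381, 581 and 1109 CPM in stented high-flow, against 297 and 133 CPM in high-flow, averaging 690 ± 376 CPM (SD, n = 3) and 215 ± 116 CPM (SD, n = 2). The log2 fold change was 1.69 ± 0.46, with an unadjusted p of 0.00389 and an adjusted p of 1 by edgeR. COL1A1, the main chain of type I collagen, overlapped, with 15024, 28860 and 44633 CPM in stented high-flow, against 32870 and 12093 CPM in high-flow. Its interval of −0.77 to 1.56 left out effects above 2.94-fold, and its leave-one-out range was −0.17 to 1.29. COL3A1, the type III chain, also overlapped, with 23848, 34708 and 20725 CPM in stented high-flow, against 25724 and 7842 CPM in high-flow (0.66 ± 0.65, leave-one-out range 0.01 to 1.75).

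Of 16 synthetic smooth muscle and matricellular genes, 11 had an estimate above 0, against 53.6% of all genes, and 4 were separate and higher in the stented group, against 5.49%, with a median of 0.37. FN1 (chromosome 15, 117658158 to 117737145), the fibronectin that cells lay down on injured surfaces, had 21060, 42454 and 18241 CPM in stented high-flow, against 17818 and 6354 CPM in high-flow. The lowest stented library lay just above the higher high-flow library, and the log2 fold change was 1.17 ± 0.60 with an interval of −0.14 to 2.49 and a leave-one-out range of 0.59 to 2.10. TNC, a matrix protein of remodelling vessels, had 1116, 1199 and 3233 CPM in stented high-flow, against 879 and 483 CPM in high-flow (1.44 ± 0.65, or 0.76 without stented replicate 3). It was separate as well, with stented replicate 3 far above the other libraries.

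Of 15 matrix proteases and inhibitors, 10 had an estimate above 0, against 53.6% of all genes. None excluded a 2-fold effect, against 37.3% of all genes. MMP2, a gelatinase made by mesenchymal cells, had 3096, 6322 and 7666 CPM in stented high-flow, against 3477 and 2296 CPM in high-flow (0.98 ± 0.44). MMP9, the gelatinase of leukocytes and activated cells, lay the other way, with 201, 141 and 243 CPM in stented high-flow, against 351 and 317 CPM in high-flow (−0.77 ± 0.56). TIMP1, a gelatinase inhibitor, had 2288, 2446 and 3402 CPM in stented high-flow, against 4222 and 3500 CPM in high-flow, with effects above 2.40-fold outside its interval. MMP9 and TIMP1 were lower in each stented library, whereas MMP2 overlapped. Among 18 elastic fibre and basement membrane genes, the median was 0.11 and 8 excluded a 2-fold effect. LTBP2, a matrix protein of elastic fibres from the TGF-beta and BMP list, had 339, 734 and 349 CPM in stented high-flow, against 177 and 136 CPM in high-flow (1.60 ± 0.47).

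**Figure D3:**
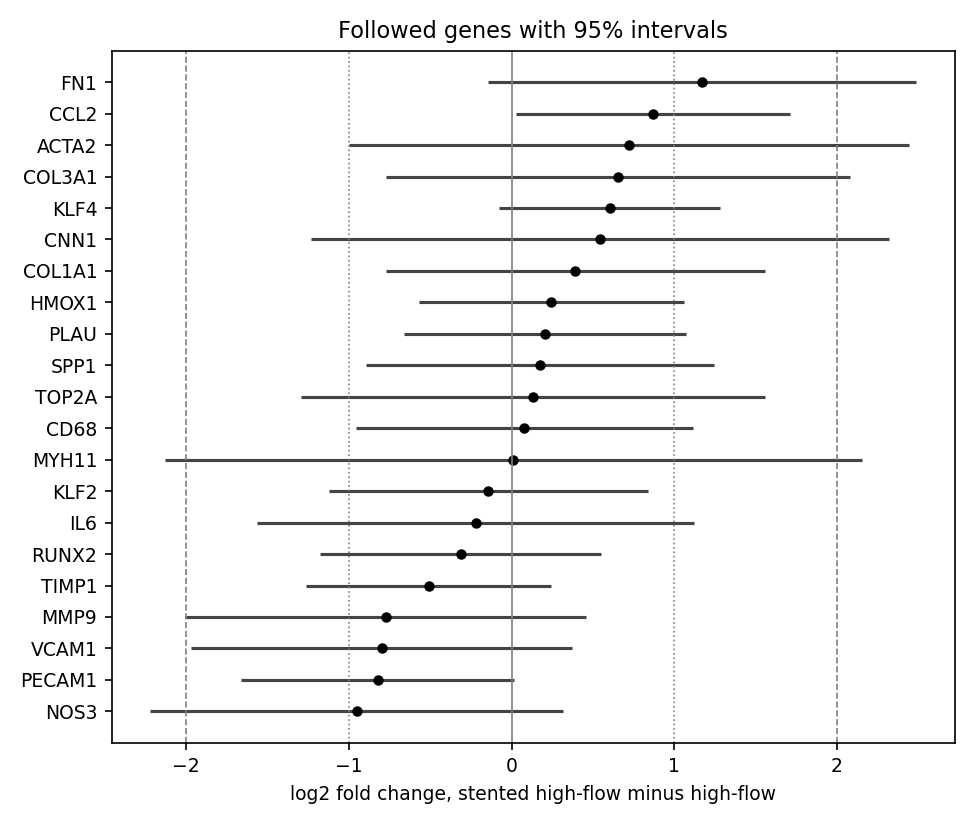
Log2 fold change (x axis, stented high-flow minus high-flow) with its 95% interval for 21 genes followed in the vessel wall; dotted lines mark 2-fold and dashed lines 4-fold in either direction. All intervals reach past 2-fold on at least 1 side, 14 of 21 stay inside 4-fold on both sides, and that of MYH11 (−2.13 to 2.15) is the widest.

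Genes that respond to a foreign surface, to metal or to cell stress showed no called difference, and for several the limits were tight. All 16 unfolded protein and heat shock genes excluded a 4-fold effect and 10 excluded a 2-fold effect (62.5%, against 37.3% of all genes). These genes were mostly abundant, and all but ATF3 and ERN1 had a mean log2 CPM above 5.48. Of all tested genes above that level, 66.5% excluded a 2-fold and 97.7% a 4-fold effect. The limits of the list were thus close to those of other abundant genes. The median log2 fold change of the list was 0.20. HSPA5, the main chaperone of the endoplasmic reticulum, had 778, 1193 and 978 CPM in stented high-flow, against 1047 and 649 CPM in high-flow, and effects above 1.83-fold lay outside its interval. ERN1, a sensor of unfolded protein, was the 1 member with an unadjusted p under 0.05. It had 14.8, 15.9 and 14.3 CPM in stented high-flow, against 29.1 and 34.7 CPM in high-flow (−1.09 ± 0.38), with both groups tight and apart.

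Of 17 oxidative stress and NRF2 genes, 10 excluded a 2-fold and 16 a 4-fold effect. None was separate between groups, against 12.5% of all genes. HMOX1, the inducible heme oxygenase, had 61.6, 152 and 122 CPM in stented high-flow, against 117 and 71.9 CPM in high-flow, and its interval left out effects above 2.08-fold. TXNRD1, a thioredoxin reductase under NRF2 control, stood at 180, 164 and 154 CPM in stented high-flow, against 161 and 159 CPM in high-flow, and effects above 1.43-fold were outside its interval. SOD2, the mitochondrial superoxide dismutase, was an exception in size, with 621, 615 and 274 CPM in stented high-flow, against 195 and 329 CPM in high-flow (0.94 ± 0.43), and its groups overlapped.

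Among 15 metal handling genes tested, the median was 0.07, and 4 excluded a 2-fold and 13 a 4-fold effect. MT1X, a metallothionein that binds zinc and copper, had 38.1, 13.6 and 37.1 CPM in stented high-flow, against 24.1 and 44.6 CPM in high-flow, so its groups overlapped. Metallothionein copies are near-identical, and reads may be split between them. MTF1, the zinc-sensing factor that induces metallothioneins, had 19.9, 16.5 and 16.6 CPM in stented high-flow, against 17.2 and 19.1 CPM in high-flow, and left out effects above 1.49-fold. FTL, the light chain of the iron store ferritin, was higher in each stented library, with 550, 529 and 757 CPM against 389 and 323 CPM in high-flow (0.78 ± 0.45).

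Of 11 foreign body and giant cell genes, 9 had an estimate below 0, against 46.2% of all genes, with a median of −0.21. SPP1, the matrix cytokine osteopontin, had 226, 149 and 429 CPM in stented high-flow, against 324 and 151 CPM in high-flow, with effects above 2.37-fold outside its interval and a leave-one-out range of −0.34 to 0.83. DCSTAMP, needed for fusion of macrophages into giant cells, was near the floor of detection in all 5 libraries, at 0.0561 to 0.141 CPM in stented high-flow and 0.257 and 0.560 CPM in high-flow. For macrophage markers, 19 of 21 excluded a 4-fold and 3 a 2-fold effect, with a median of −0.11. CD68, the lysosomal macrophage marker, had 38.5, 22.7 and 43.3 CPM in stented high-flow, against 38.2 and 27.8 CPM in high-flow. LAPTM5, a lysosomal protein of leukocytes, had 61.0, 52.4 and 45.9 CPM in stented high-flow, against 87.9 and 111 CPM in high-flow (−0.90 ± 0.29), and was lower in each stented library.

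Inflammatory cytokines and chemokines were measured less precisely. None of the 19 tested excluded a 2-fold effect, and 11 excluded a 4-fold effect. The groups of every member overlapped, whereas 12.5% of all genes had separate groups. CCL2, which recruits monocytes, had 553, 968 and 1017 CPM in stented high-flow, against 621 and 305 CPM in high-flow. Its log2 fold change was 0.87 ± 0.38, with an interval of 0.03 to 1.71 and an adjusted p of 1 by edgeR. IL6 had 8.04, 13.7 and 48.2 CPM in stented high-flow, against 36.2 and 18.3 CPM in high-flow (−0.22 ± 0.61, leave-one-out range −1.32 to 0.36). Of 15 thrombosis and fibrinolysis genes, 14 excluded a 4-fold effect. F2R, the thrombin receptor, had 13.3, 13.46 and 10.02 CPM in stented high-flow, against 27.5 and 17.5 CPM in high-flow (−0.88 ± 0.27), with no overlap.

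Interferon-response genes, which mark antiviral signalling, had the lowest median of the lists, −1.08 over 17 genes, with 14 estimates below 0, against 46.2% of all genes, and 6 genes separate and lower in the stented group, against 6.97%. This median depended on 1 library: without high-flow replicate 1 it was 0.14. IFIT2, an interferon-induced antiviral protein, had 2.30, 3.81 and 1.78 CPM in stented high-flow, against 19.1 and 1.13 CPM in high-flow. MX1, an antiviral GTPase, had 27.8, 38.5 and 28.6 CPM in stented high-flow, against 119 and 16.8 CPM in high-flow. In both genes high-flow replicate 1 was the highest and high-flow replicate 2 the lowest of the 5 libraries.

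In 6 genes of the list both high-flow libraries lay above all stented ones. IFI6 (chromosome 6, 84852782 to 84858072), an interferon-induced mitochondrial protein, had the smallest unadjusted p of the genes with a symbol and a mean log2 CPM of at least 1. It had 35.4, 21.4 and 18.1 CPM in stented high-flow, against 106 and 66.7 CPM in high-flow. The means were 24.98 ± 9.20 CPM (SD, n = 3) and 86.4 ± 27.8 CPM (SD, n = 2), and both high-flow libraries lay well above all stented ones. Its log2 fold change was −1.79 ± 0.33, with an interval of −2.51 to −1.07, an unadjusted p of 0.000198 and an adjusted p of 1 by edgeR, against an adjusted p of 0.0115 by DESeq2. Native arteries averaged 95.2 CPM. BST2, which tethers virus particles, had 7.46, 7.97 and 8.06 CPM in stented high-flow, against 19.7 and 15.3 CPM in high-flow. ISG15, a ubiquitin-like protein, had 8.68, 11.3 and 4.97 CPM in stented high-flow, against 48.1 and 13.7 CPM in high-flow. Its groups did not overlap either, but its log2 fold change of −1.89 was −0.72 without high-flow replicate 1.

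Immediate early genes, transcription factors induced within minutes of a stimulus, had estimates below 0 in 17 of 20, against 46.2% of all genes. Their median of −0.37 ranged from −0.55 to −0.28 as single libraries were left out. Of the 20 genes, 5 had an unadjusted p under 0.05, against 3.04% of all genes, and 5 were separate and lower, against 6.97%. FOS (chromosome 7, 98449508 to 98451971) had 75.5, 10.9 and 17.8 CPM in stented high-flow, against 192 and 148 CPM in high-flow, and 3300 CPM on average in native arteries. Its log2 fold change was −2.29 ± 0.63, with an interval of −3.67 to −0.92 and an adjusted p of 1 by edgeR. Stented replicate 1 was the highest of its group, and without it FOS was called, with a log2 fold change of −3.56 and an adjusted p of 0.0257. NR4A1, an orphan nuclear receptor, had 36.0, 15.5 and 42.6 CPM in stented high-flow, against 68.9 and 95.6 CPM in high-flow (−1.39 ± 0.40). JUN, the partner of FOS in AP-1, overlapped between groups, with 114, 60.3 and 145 CPM in stented high-flow, against 115 and 140 CPM in high-flow.

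The genes with the smallest unadjusted p, picked by their values, give the size of the clearest candidates. RGS5 (chromosome 4, 87286953 to 87340816), a regulator of G protein signalling typical of arterial smooth muscle and pericytes, had 51.7, 14.4 and 8.81 CPM in stented high-flow, against 136 and 221 CPM in high-flow and 709 CPM on average in native arteries. Its log2 fold change was −2.84 ± 0.66, with an interval of −4.29 to −1.39, an adjusted p of 1 by edgeR and of 0.0302 by DESeq2. ADGRG6 (chromosome 1, 22662009 to 22802166), an adhesion G protein-coupled receptor, lay the other way, with 12.8, 21.4 and 10.9 CPM in stented high-flow, against 4.68 and 2.57 CPM in high-flow. Its log2 fold change was 2.05 ± 0.46, with an interval of 1.05 to 3.05, an adjusted p of 1 by edgeR and of 0.0302 by DESeq2.

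AREG (chromosome 8, 70417935 to 70428106), a ligand of the EGF receptor, had 4.88, 18.7 and 20.1 CPM in stented high-flow, against 0.916 and 2.72 CPM in high-flow and 0.0977 CPM on average in native arteries. The log2 fold change was 3.00 ± 0.78 (adjusted p = 1 by edgeR and 0.0401 by DESeq2), and stented replicate 1 stood nearest the high-flow libraries. AVPR1A, the vasopressin receptor of smooth muscle, had 6.17, 6.73 and 3.93 CPM in stented high-flow, against 27.9 and 13.9 CPM in high-flow (−1.90 ± 0.44). CDH2, the N-cadherin of mesenchymal cells, had 7.61, 19.0 and 27.5 CPM in stented high-flow, against 4.94 and 3.13 CPM in high-flow (2.16 ± 0.53). In all of these the groups were apart, as were those of 12.5% of all genes. IFI6, RGS5, ADGRG6 and AREG are 4 of the 6 genes that DESeq2 called, and the other two carry no symbol.

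**Figure D4:**
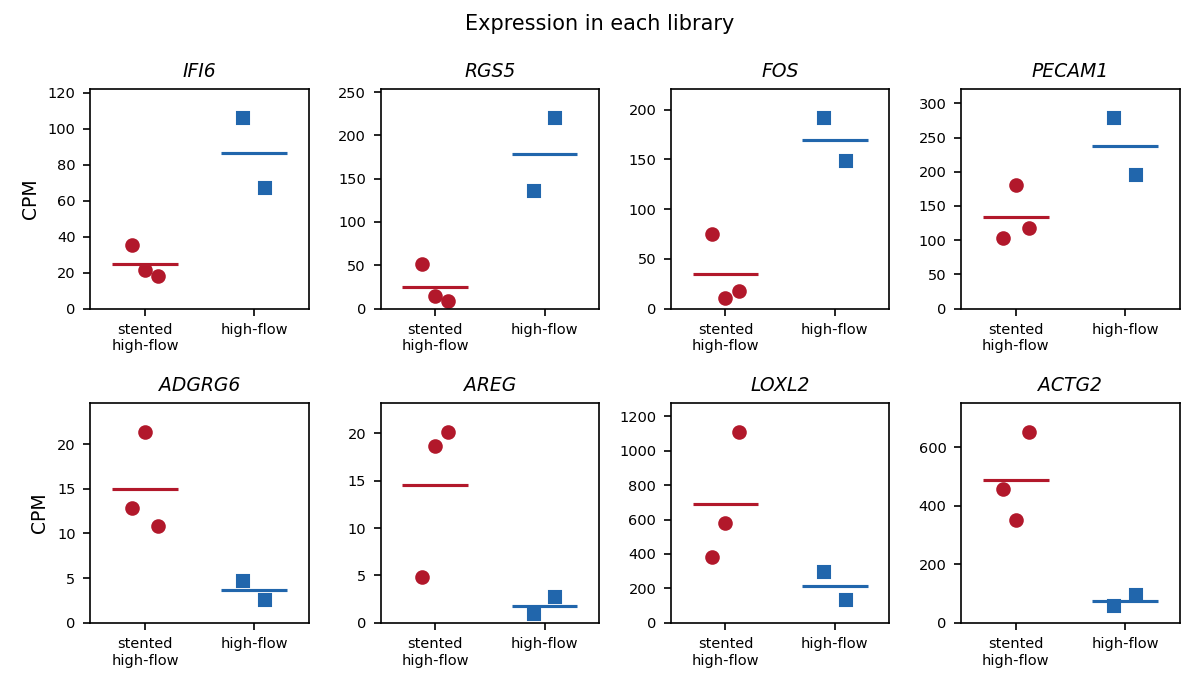
CPM (y axes, linear and starting at 0) of 8 genes in each library, with stented high-flow as circles and high-flow as squares and a line at each group mean. The groups are apart in all 8 genes, which were chosen for low p or for their role; the adjusted p was 1 in edgeR for each.

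Cell cycle genes had estimates above 0 in 20 of 23, against 53.6% of all genes. Their median of 0.31 ranged from −0.03 to 0.79 as single libraries were left out. No member was separate, against 12.5% of all genes, and 19 of 23 excluded a 4-fold effect. TOP2A, a topoisomerase of dividing cells, had 24.9, 63.7 and 75.5 CPM in stented high-flow, against 70.6 and 29.4 CPM in high-flow, so each group held low and high libraries (leave-one-out range −0.38 to 0.90). Hypoxia and glycolysis genes had a median of 0.32, and 19 of 20 excluded a 4-fold effect. NDUFA4L2, a hypoxia-induced mitochondrial protein, had 159, 287 and 483 CPM in stented high-flow, against 149 and 113 CPM in high-flow (1.24 ± 0.48). The stretch and YAP/TAZ targets, which mechanical load activates, had a median of 0.18, with 7 of 14 excluding a 2-fold and 13 a 4-fold effect. Cholesterol synthesis genes had 19 of 23 estimates below 0, against 46.2% of all genes. Their median of −0.30 was 0.23 without high-flow replicate 1. The 13 mitochondrially encoded genes all had estimates below 0, against 46.2% of all genes. They lay between −0.61 and −0.17, and all excluded a 4-fold effect. Their median of −0.37 was −0.04 without high-flow replicate 2.

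Markers of tissue around the vessel differed between the 2 high-flow libraries. Adipocyte markers summed to 207, 216 and 195 CPM in stented high-flow and to 174 and 386 CPM in high-flow, and their median of −0.77 over 13 genes was 0.12 without high-flow replicate 2. LEP, the adipocyte hormone leptin, had 0, 0 and 0.141 CPM in stented high-flow, against 0.153 and 10.4 CPM in high-flow. Cardiomyocyte markers summed to 76.1, 23.8 and 15.9 CPM in stented high-flow and to 24.2 and 89.2 CPM in high-flow, and the cardiac troponin TNNT2 was at 0 in all stented libraries and high-flow replicate 2, with 1.12 CPM in high-flow replicate 1. Lymphocyte markers summed to 9.20 to 17.8 CPM in stented high-flow and to 18.9 and 20.7 CPM in high-flow. Most of each sum came from CD79A and NKG7, and the groups overlapped in both genes. KIT, the mast cell receptor that other cells also express, had 133, 66.8 and 47.9 CPM in stented high-flow, against 185 and 186 CPM in high-flow (−1.17 ± 0.39). Adventitial fibroblast markers had a median of 0.09, but APOD, a lipid-binding protein, had 6.17, 21.9 and 26.9 CPM in stented high-flow, against 81.6 and 56.3 CPM in high-flow (−1.91 ± 0.49). The other lists had medians of −0.08 over 19 TGF-beta and BMP genes, −0.01 over 16 osteochondrogenic genes, −0.19 over 13 Schwann cell markers, −0.97 over 7 neutrophil and mast cell markers, −0.18 over 4 erythrocyte and platelet markers and 0 over 11 lymphocyte markers. The lymphocyte median is the value of CD3E and KLRK1, which had 0 CPM in all 5 libraries, so it does not measure a lack of change. HBB of the erythrocyte list also had 0 CPM in all 5 libraries. Of the neutrophil and mast cell markers, CSF3R reached at most 0.565 CPM and MS4A2 at most 0.375 CPM. The Y-linked translation factor EIF1AY was present in all 5 libraries, at 26.4, 18.2 and 11.102 CPM in stented high-flow and 15.9 and 16.9 CPM in high-flow. The part of these tissue markers in the results above was not tested.

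**Figure D5:**
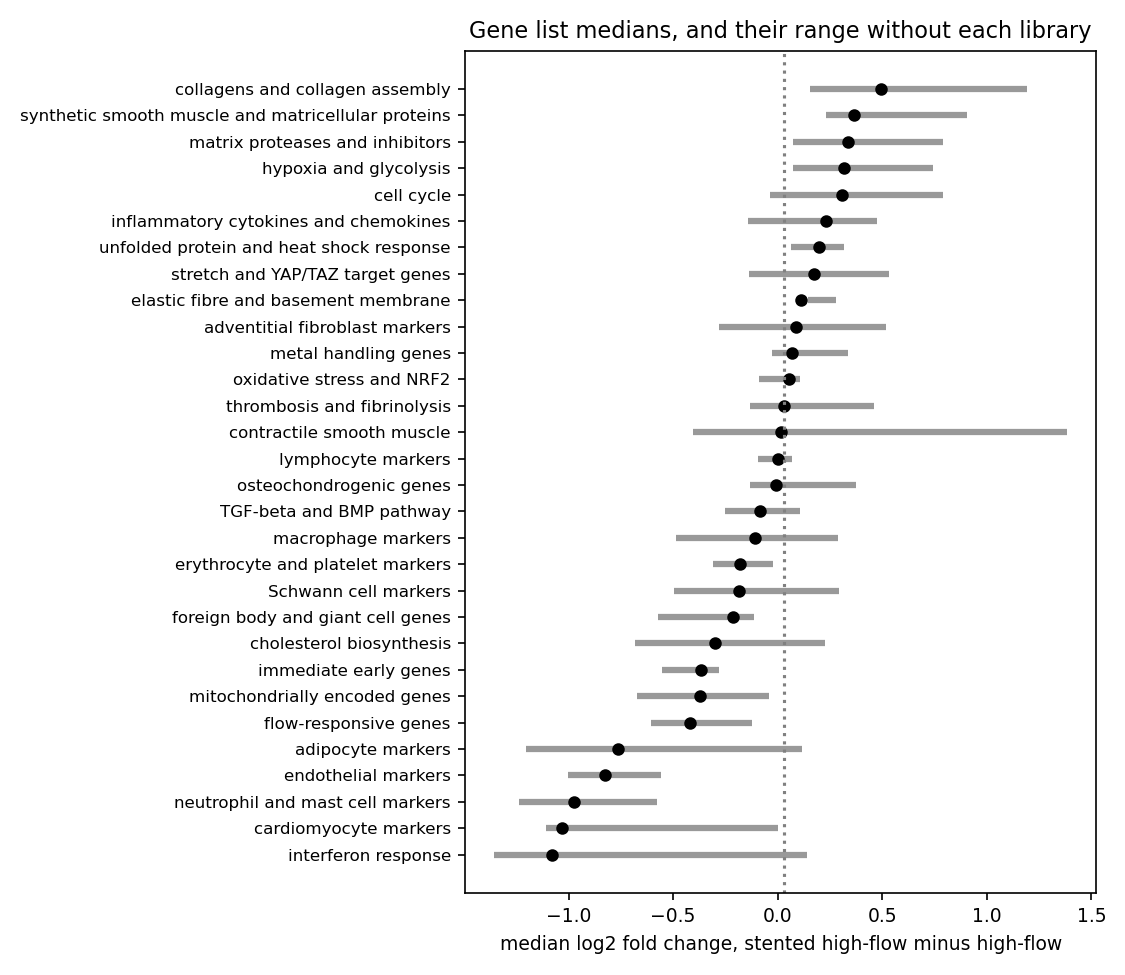
Median log2 fold change (x axis, stented high-flow minus high-flow) of each gene list shown, as a point. Grey bars give the range of the median when each of the 5 libraries is left out in turn. The dotted line is the median of all genes tested (0.03). The lists of followed genes and of sex-linked genes are not shown. The bars of the interferon, adipocyte and contractile lists cross the line. That of the endothelial markers stays between −1.0 and −0.56, and that of the neutrophil and mast cell markers between −1.24 and −0.58. Several other bars, such as those of the immediate early and collagen lists, do not cross the line either.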

How the data were processed

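Total RNA of porcine coronary arteries was sequenced as paired-end libraries. Per the submitters' processing notes, the authors worked with Trimmomatic, FastQC, DESeq2 and the Sscrofa11.1 build. Which aligner was used is unstated. The authors deposited raw gene counts for each library, in 2 tables that were joined on gene identifier. Library totals were 13496636 to 26785124 counts, which sets the counting error behind each value. Coordinates are RefSeq positions matched by symbol.

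Counts of all 11 libraries in 5 groups were fitted together in edgeR 4.0.16 (R 4.3.3) with filterByExpr, TMM scaling, the quasi-likelihood test and Benjamini-Hochberg adjustment at 0.05. The 95% interval is the log2 fold change plus or minus the t quantile times its standard error, from the F statistic. It was not computed for 116 genes with a group at 0 counts. The code was tested on simulated data. Alternatives were DESeq2 1.42.0, limma-voom 3.58.1, other scalings and filters, a threshold of 0.01, the 2 groups alone, a replicate block, no mitochondrial genes, and leaving out each library. The equivalence test was added after the data were seen.

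Gene lists (32 lists, 554 genes, 480 matched and 456 tested) and the comparison were chosen with earlier results of these data known. Named genes were up to 4 called members of each list, or the 2 with the smallest unadjusted p where none was called, 22 followed genes (1 of them is not reported here), and the 12 genes of smallest unadjusted p. The last 12, and further members named as examples, were chosen after their values were seen. The authors' lists of changed genes were not used here.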

Additional observations from a re-analysis of the deposited data

How the results depend on the processing

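The count of 0 called genes was the same under limma-voom, RLE and upper-quartile scaling, a filter that asked for 10 counts or more in each library, no filter, the 2 groups alone, a threshold of 0.01, the replicate block and without mitochondrially encoded genes. DESeq2 called 6 genes, 2 higher and 4 lower in the stented group. Leaving out single libraries gave 0 to 1 called gene, the 1 being FOS, lower without stented high-flow replicate 1, and 0 called higher. The count excluding a 2-fold effect was 2210 to 5024 as single libraries were left out, and the count excluding a 4-fold effect 9921 to 11701, against 5724 and 12087. The median half-width of the interval was 0.774 with 10 counts or more required in each library, where fewer weakly expressed genes were tested, and 0.88 to 1.13 as single libraries were left out. With the replicate block, no gene was called, and 4234 and 11363 genes excluded 2-fold and 4-fold effects. The groups share only 2 replicate numbers, and same-numbered libraries did not deviate together (correlation over genes −0.35), so the numbers were not taken as pairs. Intervals were widest in the 25% of genes with the lowest expression (median half-width 1.76), and the part of depth in this was not tested. Where 1 high-flow library was left out, the other was assumed to vary like the libraries of the other groups.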
